A study of Mus musculus with 28 samples.

Results

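The 10 transcription factors described here, Gata1, Gata2, Klf1, Gfi1b, Tal1, Zfpm1, Nfe2, Lmo2, Ldb1 and Lyl1, form the core of the regulatory network of red cell and platelet precursors. They were chosen by symbol: a probe set counted as theirs when the platform annotation named that gene and no other. This gave 12 of the 20380 probe sets with a single gene, and 10 of the 12393 genes those probe sets name. Gata2 and Zfpm1 had 2 probe sets each, and the others had 1.

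GATA1 is the zinc finger factor that red cells and megakaryocytes require to mature, and it works with the cofactor FOG1, the product of Zfpm1. GATA2 acts earlier, in stem cells, multipotent progenitors and mast cells, and GATA1 takes its place on many sites as erythroid cells mature. TAL1, or its close relative LYL1, pairs with E proteins on DNA, and LMO2 and LDB1 tie that pair to a GATA factor in a single complex. KLF1 switches on adult globin and other red cell genes, GFI1B is a repressor that both lineages need, and NFE2 is the large subunit of a factor that drives platelet formation and globin expression.

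Sorted mouse marrow cells were profiled on 28 Affymetrix arrays in 2 experiments, amplified on different days, so levels were compared only within an experiment. In the sorted experiment, cells lacking lineage antigens (Lin-) and carrying kit were divided into an sca+ fraction enriched for stem cells (HSC, 5 arrays), and into sca- fractions that were FCR+ and CD34low (common myeloid progenitors, CMP, 4 arrays), FCR+ and CD34high (granulocyte-macrophage progenitors, GMP, 4 arrays), and FCR- and CD34- (megakaryocyte-erythroid progenitors, MEP, 3 arrays). Leukaemic cells that were Lin-, sca-, kit+, FCR+ and CD34+ (L-GMP, 6 arrays) were part of the same experiment. The series' title ties the leukaemia to MLL-AF9, a fusion of a chromatin regulator with a transcription elongation factor. The labels give no further genotype, strain or age. In the transduced experiment, GMP carried either MLL-AF9 (3 arrays) or the fluorescent marker GFP as control (3 arrays).

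The labels do not say whether replicates came from separate animals or leukaemias, so the p-values reflect how far these samples scatter, and that scatter may be technical. In bulk RNA, fewer cells of a type and less RNA per cell cannot be told apart. Values are scaled signals, that is deposited intensities after each array was brought to a common mean, and differences are on the log2 scale. Signals below the 25th percentile of the experiment (38.7 in the sorted and 78.0 in the transduced experiment) were set to that floor, where they have no order. A difference against a group wholly at the floor is a lower bound, written "at least". Such a group has no spread, yet it enters the estimate of the spread that all sorted arrays share. The SE and p-values of Klf1, Gfi1b, Zfpm1 and Tal1 in the sorted experiment are therefore likely too small. A gene was called when its adjusted p in limma lay below 0.05.

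The sort markers and lineage genes mostly followed the labels. Fcgr3, an Fc receptor gene, was at the floor throughout HSC and MEP and had a mean log2 level of 9.51 in GMP and 9.65 in L-GMP. In CMP, which the labels call FCR+, its mean was 5.47 with 2 of 4 arrays at the floor. Fcgr2b, another Fc receptor gene, averaged 8.58 in CMP, above HSC (7.45) and MEP (6.95), both called, and below GMP (10.17) and L-GMP (10.78). Cd34 averaged 6.28 in MEP and 8.94 in GMP, but 9.57 in CMP, which the labels call CD34low. The mean log2 level over 17 granulocyte and monocyte genes was 10.67 to 10.89 on the GMP arrays, 10.36 to 10.75 in L-GMP, 9.32 to 9.56 in CMP, 8.12 to 9.19 in HSC and 7.26 to 8.15 in MEP. Immediate early and stress genes varied within groups: their mean over 25 genes was 7.02 to 7.81 in L-GMP and 7.29, 7.39 and 8.42 on replicate 1 of GMP, CMP and HSC, against 8.88 to 10.92 on the other normal arrays.

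The stretches below show the 250 bases before the start site of 4 of the factors whose expression separated MEP from the other cells. They run 5′ to 3′ and come from the RefSeq promoter table of build GRCm38.p6. Capitals mark the letters that GATA factors are known to bind, AGATAA or TGATAA on either strand. The table held 8 of the 10 factors with 12 start sites between them. Lmo2 and Nfe2 were not in it. Not printed are the windows of Zfpm1, Ldb1 and Lyl1, which also separated MEP (Lyl1 by being lower there), and of the later Tal1 start. Those of Zfpm1, Lyl1 and the later Tal1 start held no GATA letters.

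Gata1, chrX:7967911-7968160 (-): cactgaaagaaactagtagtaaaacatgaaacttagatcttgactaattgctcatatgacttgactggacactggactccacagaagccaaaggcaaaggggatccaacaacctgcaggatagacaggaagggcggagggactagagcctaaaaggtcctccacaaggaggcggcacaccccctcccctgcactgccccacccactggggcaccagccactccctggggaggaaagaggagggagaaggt
Gfi1b, chr2:28621983-28622232 (-): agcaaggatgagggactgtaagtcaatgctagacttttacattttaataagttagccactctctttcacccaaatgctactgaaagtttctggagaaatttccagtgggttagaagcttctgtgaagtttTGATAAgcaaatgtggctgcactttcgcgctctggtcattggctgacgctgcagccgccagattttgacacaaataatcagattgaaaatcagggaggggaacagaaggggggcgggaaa
Klf1, chr8:84901732-84901981 (+): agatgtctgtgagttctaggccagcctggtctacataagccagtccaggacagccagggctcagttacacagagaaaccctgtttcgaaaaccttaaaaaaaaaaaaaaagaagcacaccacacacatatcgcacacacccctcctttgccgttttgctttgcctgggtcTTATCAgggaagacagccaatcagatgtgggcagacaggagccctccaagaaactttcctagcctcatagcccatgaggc
Tal1, chr4:115056176-115056425 (+): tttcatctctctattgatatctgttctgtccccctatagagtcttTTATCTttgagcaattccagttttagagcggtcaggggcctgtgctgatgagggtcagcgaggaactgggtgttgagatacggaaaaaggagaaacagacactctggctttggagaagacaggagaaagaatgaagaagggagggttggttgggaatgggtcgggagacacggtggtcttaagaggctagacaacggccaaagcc

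The GATA letters lay in 4 of the 12 start regions, those of Gfi1b (first base 120 bases before the start), Klf1 (80), Tal1 at the earlier of its 2 starts (205) and Ldb1 at 1 of its 3 starts, which held them at 240 and 200. Of 32851 promoter windows of the same length in the table, 16.6% held them. The Gata1 window had none, and held the letters CCACCC, which KLF factors are known to bind, 53 bases before the start. CCACCC on either strand was in 5 of the 12 windows and in 28.1% of all promoter windows. These matches describe letters only.

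Gata1 was highest in MEP. Its scaled signal was 658, 729 and 734 on the MEP arrays and 286, 189, 144 and 234 on the CMP arrays. In HSC it ran from 54.4 to 94.8, in GMP from 52.7 to 74.1 and in L-GMP from 48.9 to 76.0 with a median of 70.2. MEP, CMP and the other groups thus formed 3 steps that did not overlap, while HSC, GMP and L-GMP lay on top of each other. MEP exceeded GMP 10.8-fold (log2 difference 3.43 ± 0.22 (SE), adjusted p = 1.17e-10) and CMP 3.42-fold (1.77 ± 0.22, adjusted p = 4.57e-06). CMP exceeded HSC by 1.57 ± 0.19 (adjusted p = 8.64e-06), and HSC and GMP differed by 0.09 ± 0.19 (adjusted p = 0.764).

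**Figure D1:**
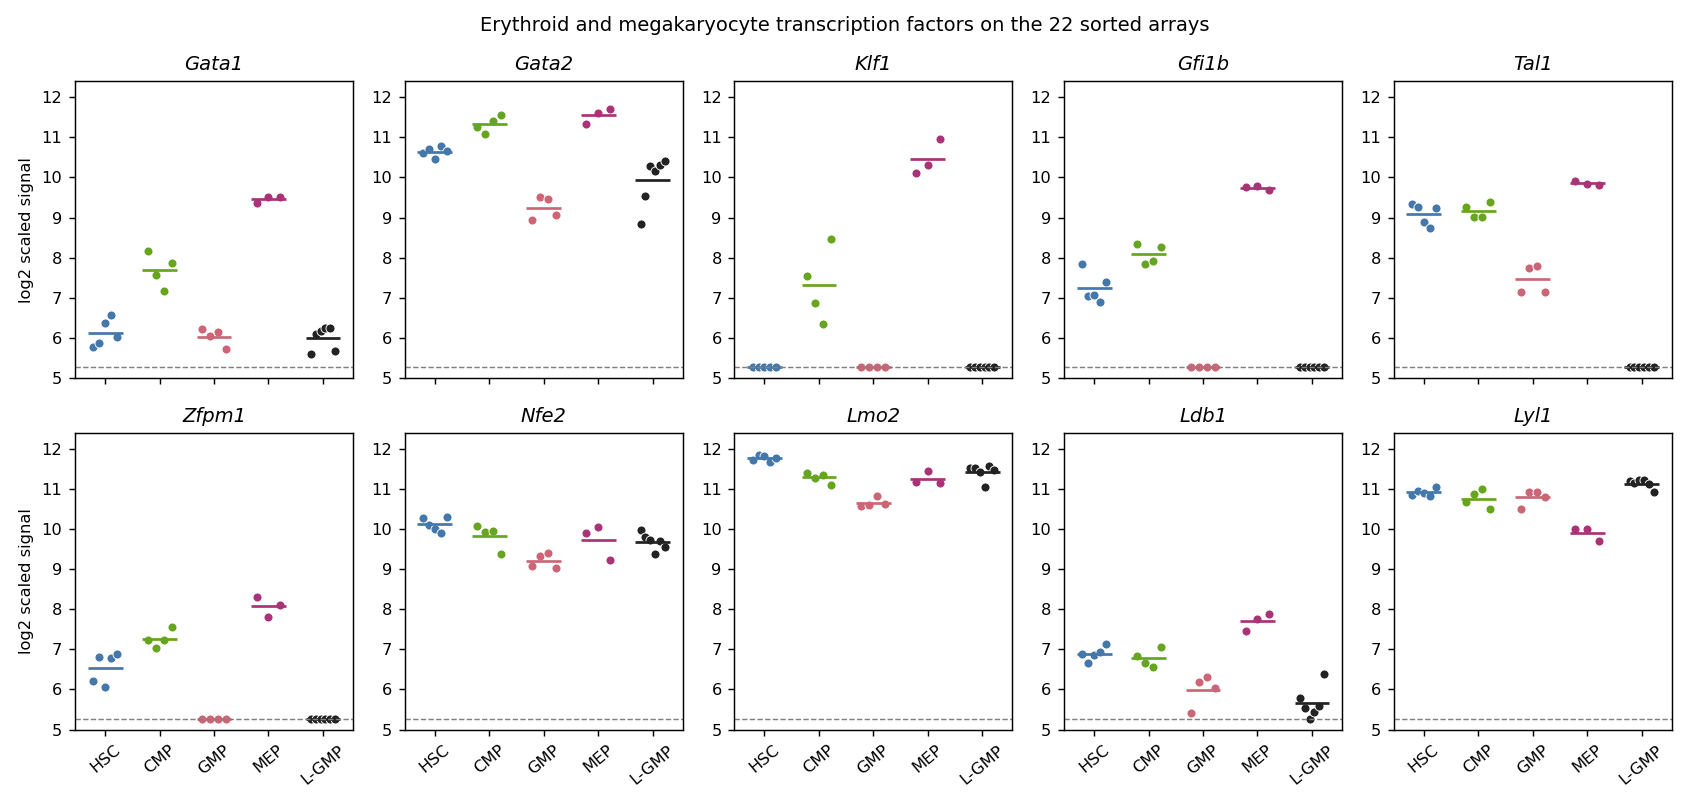
Log2 scaled signal of the 10 factors on the 22 arrays of the sorted experiment, 1 panel per gene. Each point is an array, short lines are group means, and the dashed line is the floor at 5.27. Klf1, Gfi1b and Zfpm1 lie on the floor throughout GMP and L-GMP, Tal1 lies on it in L-GMP alone, and Lyl1 has its lowest points in MEP.

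Gata2 had another pattern. Its brighter probe set read 2587, 3130 and 3317 in MEP, 2455, 2151, 2693 and 3023 in CMP, and 1566, 1670, 1416, 1753 and 1604 in HSC. GMP arrays read 492, 735, 706 and 533, and L-GMP arrays ran from 456 to 1369 with a median of 1191. MEP and CMP overlapped and did not differ beyond their spread (0.23 ± 0.27, adjusted p = 0.657). Both lay above HSC on every array, though CMP against HSC missed the threshold (0.68 ± 0.24, adjusted p = 0.0622); it passed in a fit of only those groups (0.00383), with array weights (0.0228) and with the replicate block (0.0307). HSC lay above GMP and L-GMP on every array. MEP exceeded GMP by 2.30 ± 0.27 (4.93-fold, adjusted p = 7.96e-07) and HSC by 0.91 ± 0.26 (adjusted p = 0.00941; 0.0514 without replicate 3 of MEP). The second Gata2 probe set gave the same direction for MEP against GMP (2.58) and HSC (1.33), and called HSC lower than CMP (-0.85 ± 0.17, adjusted p = 0.00193 in a fit of every kept probe set). On that probe set MEP lay above CMP on every array, but the difference was not called (0.48 ± 0.19, adjusted p = 0.110 in the same fit).

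Zfpm1 was read by a single informative probe set, the other being at the floor on every array of both experiments. Its signal was 316, 224 and 275 in MEP, 149, 130, 149 and 187 in CMP and 66.7 to 118 in HSC. All 4 GMP arrays (15.7 to 37.9) and all 6 L-GMP arrays (-3.72 to 16.3) were below the floor. MEP, CMP and HSC did not overlap, and each step was called: MEP over CMP by 0.82 ± 0.17 (adjusted p = 0.00132) and CMP over HSC by 0.71 ± 0.15 (adjusted p = 0.00266). MEP exceeded GMP at least 6.94-fold (adjusted p = 4.08e-11).

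Klf1 was above the floor only in MEP and CMP. It read 1103, 1270 and 1992 in MEP and 187, 118, 82.1 and 351 in CMP, and every HSC, GMP and L-GMP array was below the floor. The CMP arrays spread over a wide range, with replicate 4 highest. On the log2 scale the SD was 0.91 in CMP and 0.45 in MEP. HSC, GMP and L-GMP, wholly at the floor, add no spread to the shared estimate, so the SE given next understates the scatter. MEP exceeded CMP 8.87-fold (3.15 ± 0.29, adjusted p = 8.62e-08) and each of HSC, GMP and L-GMP at least 36.4-fold. CMP exceeded GMP at least 4.10-fold (adjusted p = 1.23e-05).

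Gfi1b read 867, 881 and 827 in MEP, 322, 228, 242 and 306 in CMP, and 230, 133, 134, 120 and 167 in HSC. All GMP arrays (-40.6 to -6.68) and all L-GMP arrays (-28.1 to 9.73) were below the floor. Gfi1b was thus above the floor in HSC on every array, where Klf1 was not, and its HSC and CMP ranges overlapped through replicate 1 of HSC. MEP exceeded CMP 3.16-fold (1.66 ± 0.16, adjusted p = 1.34e-07), CMP exceeded HSC 1.78-fold (0.84 ± 0.14, adjusted p = 0.000319), and HSC exceeded GMP at least 3.93-fold (adjusted p = 4.39e-10).

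Tal1 was the factor called lower in L-GMP than in normal GMP. Its signal was 967, 908 and 903 in MEP, 610, 516, 518 and 668 in CMP, and 651, 611, 474, 430 and 601 in HSC. Normal GMP read 142, 214, 222 and 142, and the 6 L-GMP arrays ran from -0.81 to 14.6, all below the floor. HSC and CMP overlapped (difference 0.07 ± 0.14, adjusted p = 0.815), and every other neighbouring pair in the order of levels was called and did not overlap. MEP exceeded CMP by 0.69 ± 0.16 (adjusted p = 0.00386), HSC exceeded GMP by 1.63 ± 0.14 (adjusted p = 8.94e-09), and GMP exceeded L-GMP at least 4.55-fold (adjusted p = 8.14e-11). Tal1 in L-GMP was at least 23.9-fold below MEP and at least 14.1-fold below HSC.

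Lyl1, the relative of Tal1, ran the other way. It read 1031, 1016 and 831 in MEP against 1444 to 2028 in CMP, 1444 to 1952 in GMP, 1821 to 2103 in HSC and 1922 to 2366 in L-GMP. The MEP arrays were the lowest of the experiment, and the other groups overlapped with their neighbours in the order of levels. MEP was 1.85-fold below GMP (-0.89 ± 0.13, adjusted p = 1.01e-05) and 1.81-fold below CMP (-0.85 ± 0.13, adjusted p = 3.57e-05).

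Lmo2, the bridging subunit, was high everywhere. It read 3231 to 3689 in HSC, 2112 to 3036 in L-GMP with a median of 2875, 2199 to 2708 in CMP, 2308, 2765 and 2244 in MEP, and 1518, 1552, 1815 and 1586 in GMP. HSC lay above and GMP below all other arrays, and L-GMP, CMP and MEP overlapped. MEP exceeded GMP by 0.59 ± 0.12 (adjusted p = 0.000597) and fell short of HSC (-0.51 ± 0.11, adjusted p = 0.00128).

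Ldb1, the protein through which such complexes join, gave low signals. They were 176, 215 and 237 in MEP, 101 to 141 in HSC, 94.1 to 133 in CMP, 42.8, 73.1, 79.5 and 66.2 in GMP, and 37.8 to 83.6 in L-GMP, where 1 array was at the floor. MEP lay above all other arrays, HSC overlapped CMP, and GMP overlapped L-GMP. MEP exceeded GMP 3.27-fold (1.71 ± 0.22, adjusted p = 3.41e-06) and HSC 1.75-fold (0.81 ± 0.21, adjusted p = 0.00546).

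Nfe2 was above the floor in every group. It read 1234, 1104, 1021, 956 and 1253 in HSC, 1077, 972, 987 and 661 in CMP, 955, 1061 and 595 in MEP, 660 to 998 in L-GMP and 540, 641, 673 and 518 in GMP. HSC, CMP, MEP and L-GMP overlapped, and replicate 4 of CMP, replicate 3 of MEP and replicate 4 of L-GMP lay inside the GMP range. HSC exceeded GMP by 0.91 ± 0.17 (adjusted p = 0.000158). MEP exceeded GMP by only 0.52 ± 0.19 (adjusted p = 0.0463). This call was lost when any of GMP replicates 1, 2 or 4 or MEP replicates 1 or 2 was left out (highest adjusted p 0.255, without replicate 2 of MEP). It was also lost without the filter (adjusted p = 0.0701), with the deposited values (0.177) and in a fit of only those groups (0.136).

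Counted together, 9 of the 10 factors were called higher and 1, Lyl1, lower in MEP than in GMP, where 27.5% of the 8422 genes tested were called, 11.9% higher and 15.6% lower. The median difference of the 10 was 2.35 against 0.05 over all genes tested. Against CMP, 6 were higher in MEP (Gata1, Klf1, Gfi1b, Tal1, Zfpm1 and Ldb1) and Lyl1 lower, with 17.1% of all genes called (6.19% higher, 10.9% lower). Against HSC, 7 were higher in MEP, those 6 and Gata2, and Lmo2 and Lyl1 lower, with 32.9% of all genes called (15.5% higher, 17.4% lower). All 10 factors passed the filter on low signal, but Klf1 and Zfpm1, for example, had no signal above the floor in GMP or L-GMP and passed through the groups in which they were high.

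CMP held 9 of the factors above GMP and 0 below, with 16.8% of all genes called (8.6% higher, 8.18% lower). Gfi1b was at least 7.02-fold higher and Gata2 4.22-fold higher (2.08 ± 0.25, adjusted p = 3.32e-06), Klf1 and Zfpm1 gave bounds of at least 4.10-fold and 3.94-fold, and Lyl1 was the factor not called (-0.04 ± 0.12). The Nfe2 call (0.63 ± 0.18, adjusted p = 0.0165) was lost without CMP replicate 1 or 3 or GMP replicate 4 (adjusted p = 0.0615, 0.0517 and 0.0586). HSC held 7 above GMP (Gata2, Gfi1b, Tal1, Zfpm1, Nfe2, Lmo2 and Ldb1), with 41.2% of all genes called (19.4% higher, 21.8% lower). HSC against CMP had 4 lower (Gata1, Klf1, Gfi1b and Zfpm1) and 1 higher, Lmo2 (0.48 ± 0.10, adjusted p = 0.00384), with 13.4% of all genes called (6.01% higher, 7.43% lower). With the floor at the 50th percentile, the calls of Zfpm1 and Ldb1 between HSC and GMP (adjusted p = 0.773 and 0.135), of Ldb1 between CMP and GMP (0.584), and of Klf1 between CMP and both GMP and HSC (0.0727 and 0.0594) were lost.

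**Figure D2:**
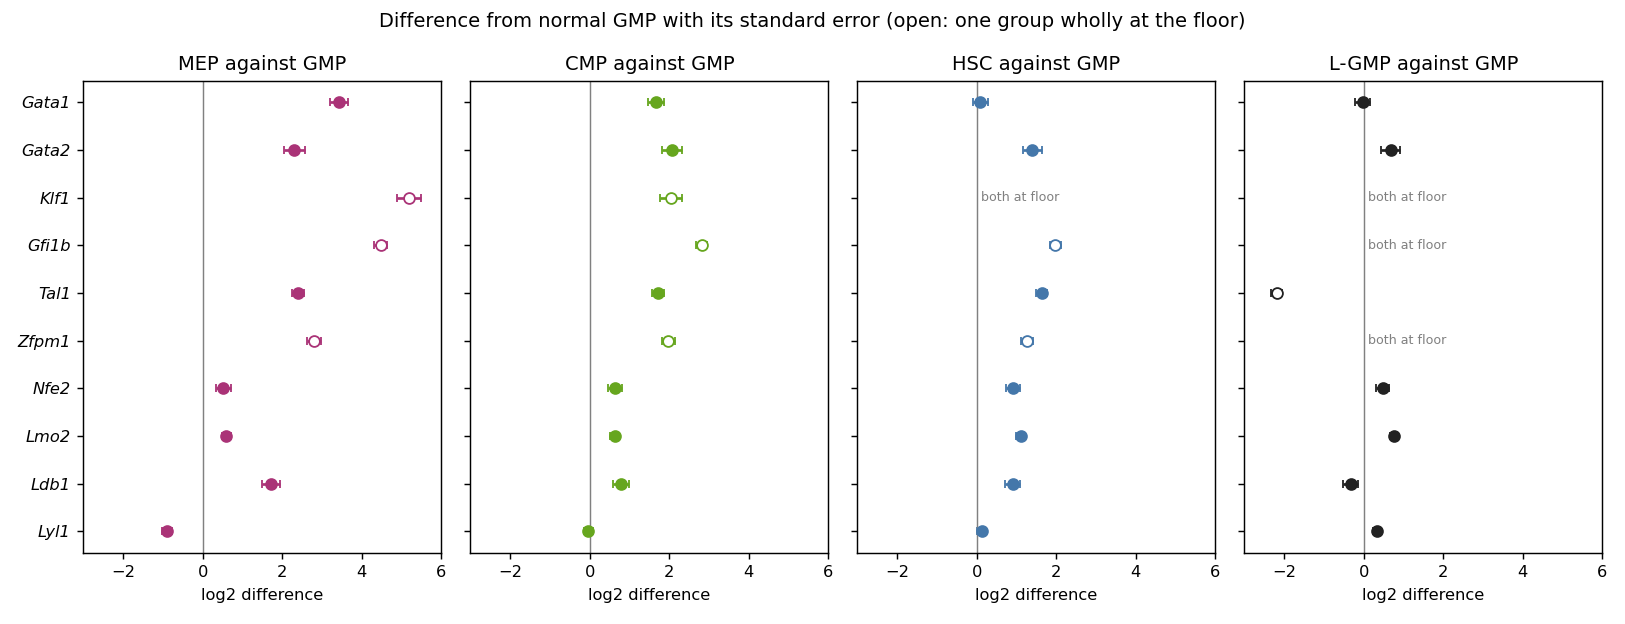
Log2 difference of MEP, CMP, HSC and L-GMP from normal GMP for each factor, with the standard error of the fit as bars. Open circles mark a comparison with 1 group wholly at the floor, a lower bound, and gene rows with both groups there carry a note instead of a point. In MEP every factor but Lyl1 lies to the right of 0; in L-GMP Tal1 alone lies far to the left, at -2.19.

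Genes that serve these factors were counted from lists of partners and targets. Of 50 erythroid target genes 35 were tested, and in MEP against GMP 21 were higher and 1 lower, with a median difference of 0.71 against 0.05 over all genes tested, of which 11.9% were higher and 15.6% lower. Car2, a carbonic anhydrase of red cells, was 3.08-fold higher (1.62 ± 0.39, adjusted p = 0.00302) and Urod, an enzyme of haem synthesis, 2.61-fold higher (1.38 ± 0.17, adjusted p = 1.20e-06). Fech, which inserts iron into haem, was 1.59-fold higher, and Slc25a37, a mitochondrial iron importer, was the member that was lower (-0.88 ± 0.27, adjusted p = 0.0180). Against CMP 19 of the 35 were higher in MEP and 0 lower (all genes 6.19% and 10.9%). The mean log2 level of the 40 erythroid genes measured was 8.33 to 8.55 on the MEP arrays, 7.31 to 7.69 in CMP, 7.01 to 7.15 in HSC, 6.96 to 7.14 in GMP and 6.92 to 7.07 in L-GMP. CMP replicate 4, highest in Klf1, was also the highest CMP array for this list.

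The megakaryocyte targets did not follow MEP alone. Of 15 tested from a list of 32, 7 were higher and 2 lower in MEP than in GMP, where 27.5% of all genes were called. In CMP against GMP 10 were higher and 2 lower, with 16.8% of all genes called. Between MEP and CMP 2 were higher in MEP and 4 lower, with 17.1% of all genes called. F2r, a thrombin receptor, had mean log2 levels of 12.29 in MEP, 11.83 in CMP and 7.79 in GMP. Pf4, a platelet chemokine, was 11.1-fold above GMP in MEP (3.47 ± 0.56, adjusted p = 5.26e-05) and 11.4-fold in CMP (3.51 ± 0.52, adjusted p = 4.49e-05). F13a1, a clotting factor subunit that monocytes also make, was 35.4-fold lower in MEP than in GMP (-5.15 ± 0.52, adjusted p = 1.08e-07). The list's mean log2 level was 7.11, 6.92, 6.89 and 7.52 on the CMP arrays and 6.72 to 6.92 on the MEP arrays, so the groups overlapped.

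**Figure D3:**
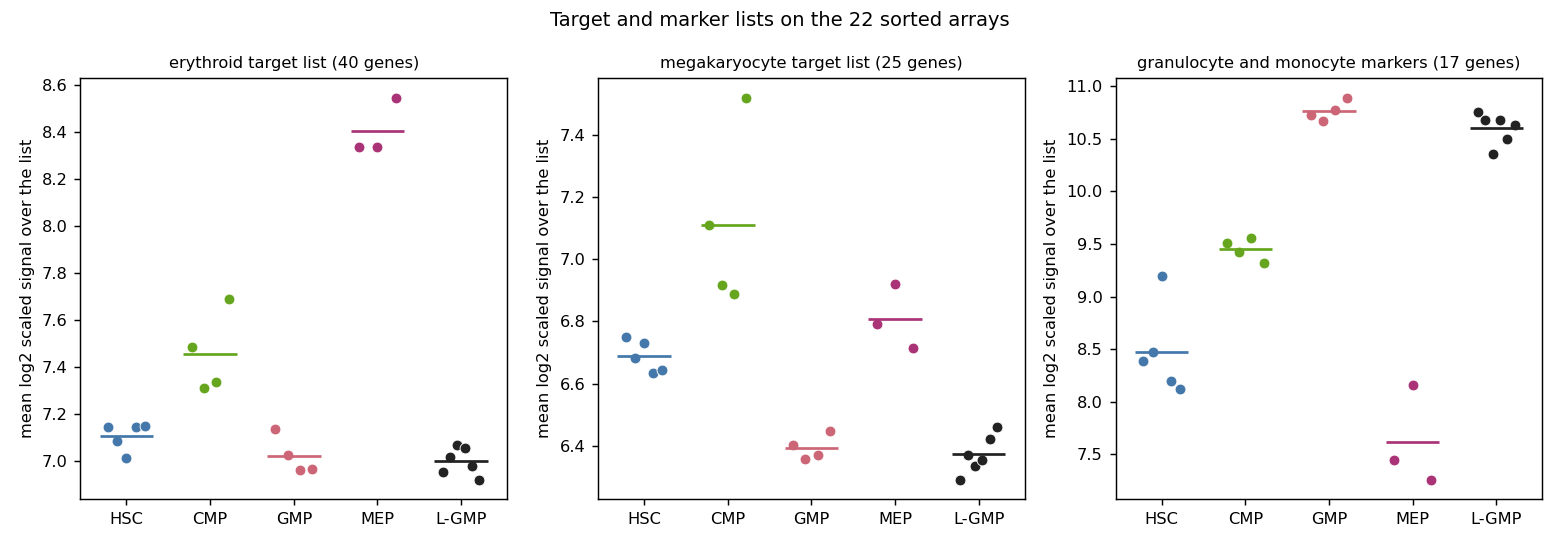
Mean log2 scaled signal over the erythroid targets (40 genes measured), megakaryocyte targets (25) and granulocyte and monocyte markers (17) on the sorted arrays, by group. Points are arrays and lines are group means. The 3 MEP arrays lie at 8.33 to 8.55 for erythroid targets, above all others, and at 7.26 to 8.15 for granulocyte and monocyte markers, and CMP replicate 4 is highest for megakaryocyte targets.

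Partners and cofactors of the factors moved in both directions. Of 30 listed, 28 were tested, and 12 were higher and 5 lower in MEP than in GMP (median 0.11), against 11.9% and 15.6% of all genes. Cbfa2t3, a corepressor found with TAL1 (also called ETO2), was 1.90-fold higher (0.93 ± 0.14, adjusted p = 2.63e-05), and Tcf12, an E protein that pairs with TAL1, was 1.28-fold higher. Gfi1, the myeloid relative of Gfi1b, was 14.5-fold lower in MEP (-3.86 ± 0.29, adjusted p = 1.26e-09), the reverse of Gfi1b itself. In the same comparison, 0 granulocyte and monocyte genes were higher and 16 of 17 lower.

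For 4 factors, the genes whose 5 group means lay closest to theirs were named by the root mean square difference between centred means, over 5 groups. For Gata1 these were Kel, a blood group antigen (0.0836), Csrp3, Epor, the erythropoietin receptor, and Epdr1, and for Klf1 they were Ces2g (0.129), Aqp1, the water channel of red cells, Abcb4 and Car1, another carbonic anhydrase. For Gata2 they were Mta3 (0.285), Slamf1, Slc14a1 and Adcy6. For Tal1 they were Tfr2, the second transferrin receptor (0.231), Cttn, Slc12a2 and Bcl11a. Like Tal1, these 4 were low in L-GMP: Tfr2 averaged 10.23 in MEP, 7.61 in GMP and 5.35 in L-GMP on the log2 scale, and Bcl11a, a globin repressor, 10.28, 8.52 and 5.29. This likeness is a description of 5 means, with no test. The L-GMP mean was among those 5, so the low L-GMP levels of the genes closest to Tal1 follow from how they were chosen.

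L-GMP were compared with normal GMP, whose sort markers are closest to theirs. Of the 10 factors 4 were called higher (Gata2, Nfe2, Lmo2 and Lyl1) and 1 lower (Tal1), with 33.5% of all genes called (15.2% higher, 18.3% lower). The values of Tal1 are given above. Lmo2 was 1.70-fold higher (0.77 ± 0.10, adjusted p = 4.66e-06), and its ranges did not overlap. Gata1 did not pass the test (-0.03 ± 0.19, adjusted p = 0.938), nor did Ldb1 (-0.32 ± 0.19, adjusted p = 0.203), and Klf1, Gfi1b and Zfpm1 were at the floor in both.

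The other calls were small, and their ranges overlapped. Gata2 was 1.60-fold higher (0.68 ± 0.23, adjusted p = 0.0264), with 4 L-GMP arrays between 1145 and 1369 and the others at 456 and 746, just past either end of the GMP range. The second Gata2 probe set gave 0.18 ± 0.16 (adjusted p = 0.433 in a fit of every kept probe set). The Gata2 call was lost without GMP replicate 1 or 4 (adjusted p = 0.0871 and 0.0757) and without L-GMP replicate 3, 4, 5 or 6 (0.0516 to 0.0598). It was also lost in a fit of only those groups (adjusted p = 0.120) and with array weights (0.106). The Nfe2 call described next was also lost with the deposited values (adjusted p = 0.0551). Nfe2 (0.48 ± 0.16, adjusted p = 0.0251) was lost without GMP replicate 1 or 4 or L-GMP replicate 1 (adjusted p = 0.0682, 0.0830 and 0.0549), and Lyl1 (0.34 ± 0.11, adjusted p = 0.0177) without GMP replicate 1 (0.0934). Without GMP replicate 1, 3 factors were called, and Ldb1 was among them as lower (-0.51, adjusted p = 0.0371). Ldb1 was also called lower without L-GMP replicate 6 (-0.46, adjusted p = 0.0313) and with array weights (-0.47, adjusted p = 0.0299). GMP replicate 1 is also the GMP array with low immediate early genes; without replicate 1 of HSC, CMP and GMP together, Lmo2 was called higher and Tal1 and Ldb1 lower.

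The target lists held calls in both directions between L-GMP and GMP, where 15.2% of all genes were higher and 18.3% lower. Of the 35 erythroid genes 6 were higher and 7 lower (median 0.05), a share near that of all genes called, with Fech higher (0.75 ± 0.10, adjusted p = 4.29e-06) and Cpox, another haem enzyme, lower (-1.53 ± 0.29, adjusted p = 0.000295). Of the 15 megakaryocyte genes 4 were higher and 4 lower. P2rx1 was 3.67-fold higher (1.88 ± 0.21, adjusted p = 5.33e-07), and F2r was at the floor throughout L-GMP, at least 5.73-fold lower. Among 28 partners 4 were higher and 7 lower, with Tcf4, an E protein, 2.41-fold higher (1.27 ± 0.14, adjusted p = 5.35e-07) and Kdm1a, a histone demethylase found with GFI1B, 1.54-fold lower (-0.63 ± 0.09, adjusted p = 8.30e-06). Gata2 and Gata1 are also used by mast cells and eosinophils: of 9 mast cell and basophil genes tested 5 were lower and 0 higher in L-GMP, and of 4 eosinophil genes 3 were higher (all genes called, 33.5%), among them Prg2, a granule protein (2.04 ± 0.70, adjusted p = 0.0290). Summed over 7 measured eosinophil genes the signal was 3680 to 5845 in L-GMP and 833 to 3402 in GMP, and Ccr3 was at the floor in both; over 17 mast cell and basophil genes it was 1950 to 3974 and 3514 to 3963. Their part in the factors' levels was not tested.

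Against MEP, L-GMP had 7 factors lower (all but Nfe2, Lmo2 and Lyl1) and 1 higher, Lyl1 (2.34-fold, 1.23 ± 0.12, adjusted p = 1.76e-08), with 45.2% of all genes called (22.2% higher, 22.9% lower). Gata1 was 11.0-fold and Gata2 3.09-fold lower. Against HSC 7 were lower and 0 higher, with 47.2% of all genes called (23.3% higher, 23.9% lower). Gata1 and Lyl1 were not among them, Klf1 was at the floor in both groups, and the Nfe2 call (-0.43 ± 0.15, adjusted p = 0.0223) was lost without HSC replicate 1 or 5 or L-GMP replicate 4 (0.0551, 0.0595 and 0.0555). With the floor at the 50th percentile, the calls of Zfpm1 (-0.04, adjusted p = 0.721) and Ldb1 (-0.17, 0.0872) against HSC, and of Ldb1 against CMP (-0.10, 0.394), were lost. Against CMP 7 were lower and 1 higher (Lyl1, 0.37 ± 0.11, adjusted p = 0.00762), with 39.9% of all genes called (18.3% higher, 21.6% lower). These comparisons share the L-GMP arrays. Of the erythroid targets 21 were lower and 3 higher in L-GMP than in MEP, and of the megakaryocyte targets 8 were lower and 4 higher.

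Ratios within an array were taken for 2 pairs of relatives, Gata1 to Gata2 and Tal1 to Lyl1. They compare probe sets of different brightness, so only their change between groups carries meaning. The log2 ratio of Gata1 to Gata2 averaged -2.08 ± 0.10 (SD) in MEP, -3.21 ± 0.33 in GMP, -3.92 ± 0.54 in L-GMP and -4.52 ± 0.35 in HSC. MEP lay above the other 3 of these groups on every array, and L-GMP overlapped GMP. That of Tal1 to Lyl1 averaged -0.04 ± 0.15 in MEP, -1.82 ± 0.23 in HSC, -3.33 ± 0.23 in GMP and -5.85 ± 0.11 in L-GMP, an upper bound since Tal1 was at the floor there, and these 4 groups did not overlap. In exact two-sided permutation tests, the Tal1 to Lyl1 ratio of L-GMP against GMP gave p = 0.00952 and that of MEP against HSC p = 0.0357, each the smallest p its design allows. Adjusted over the 10 tests of both ratios, none passed, the lowest adjusted p being 0.0714. With so few arrays, only L-GMP against GMP could have passed this adjustment, and only with both ratios at their smallest p. For every other comparison the smallest possible p is too large, so the adjusted values cannot decide whether those ratios differ.

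**Figure D4:**
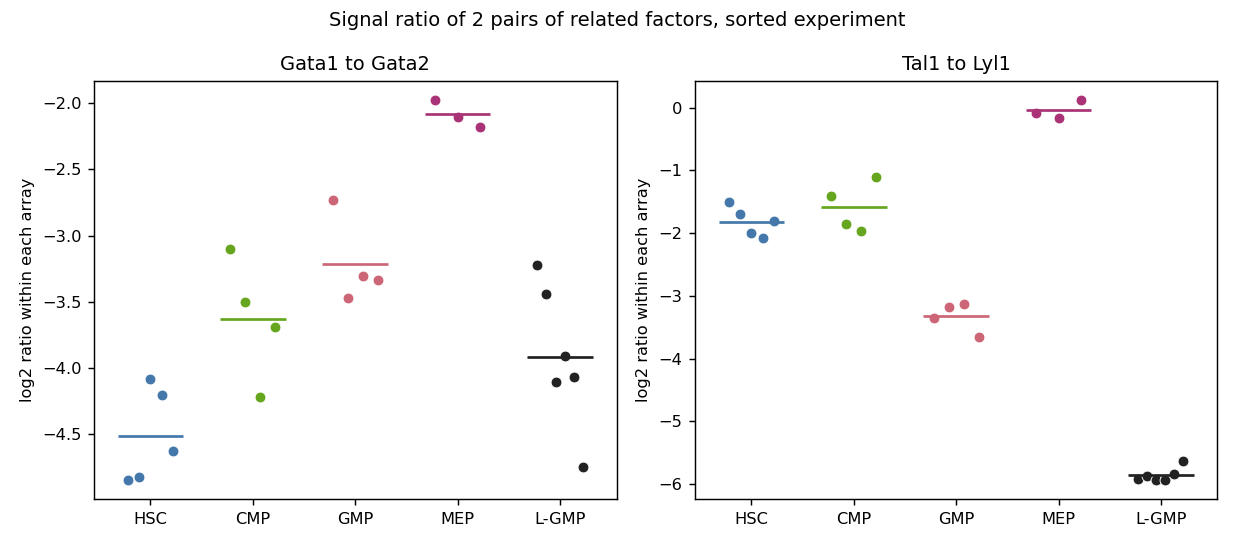
Log2 ratio of the scaled signals of Gata1 to Gata2 (left) and Tal1 to Lyl1 (right) within each sorted array, by group. Points are arrays and lines are group means. MEP is highest in both panels, HSC lowest for Gata1 to Gata2, and the 6 L-GMP arrays lie between -5.93 and -5.63 for Tal1 to Lyl1, where Tal1 is at the floor.

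In the transduced experiment, GMP with MLL-AF9 were compared with GMP with GFP alone. Only Gata2, Tal1, Nfe2, Lmo2 and Lyl1 passed the filter on low signal there, and 0 of these 5 were called, with 0.0276% of 7235 genes called (0.0138% in each direction; 2 genes, while 740 had an unadjusted p under 0.05 in limma). Gata2 came closest. It read 296, 902 and 955 with GFP and 1258, 2220 and 1868 with MLL-AF9, so the groups did not overlap and it was higher in 3 of 3 pairs of the same replicate number (1.45 ± 0.47, 2.73-fold, adjusted p = 0.444). Replicate 1 of GFP was the lowest array, and without it the difference was 0.90 (adjusted p = 0.637). That fit kept replicate 1 of MLL-AF9, the lowest of its group, so it did not leave out a whole pair. With the replicate number as a block, by which samples were paired here, Gata2 was called (1.45 ± 0.22, adjusted p = 0.0390), with 1.74% of genes called, 126 in all (0.207% higher, 1.53% lower). The blocked fit was not repeated without replicate 1 of GFP, whose log2 3' to 5' ratio over control probe sets was 1.14 against 1.71 and 1.67 on the other GFP arrays; its part in the result was not tested.

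**Figure D5:**
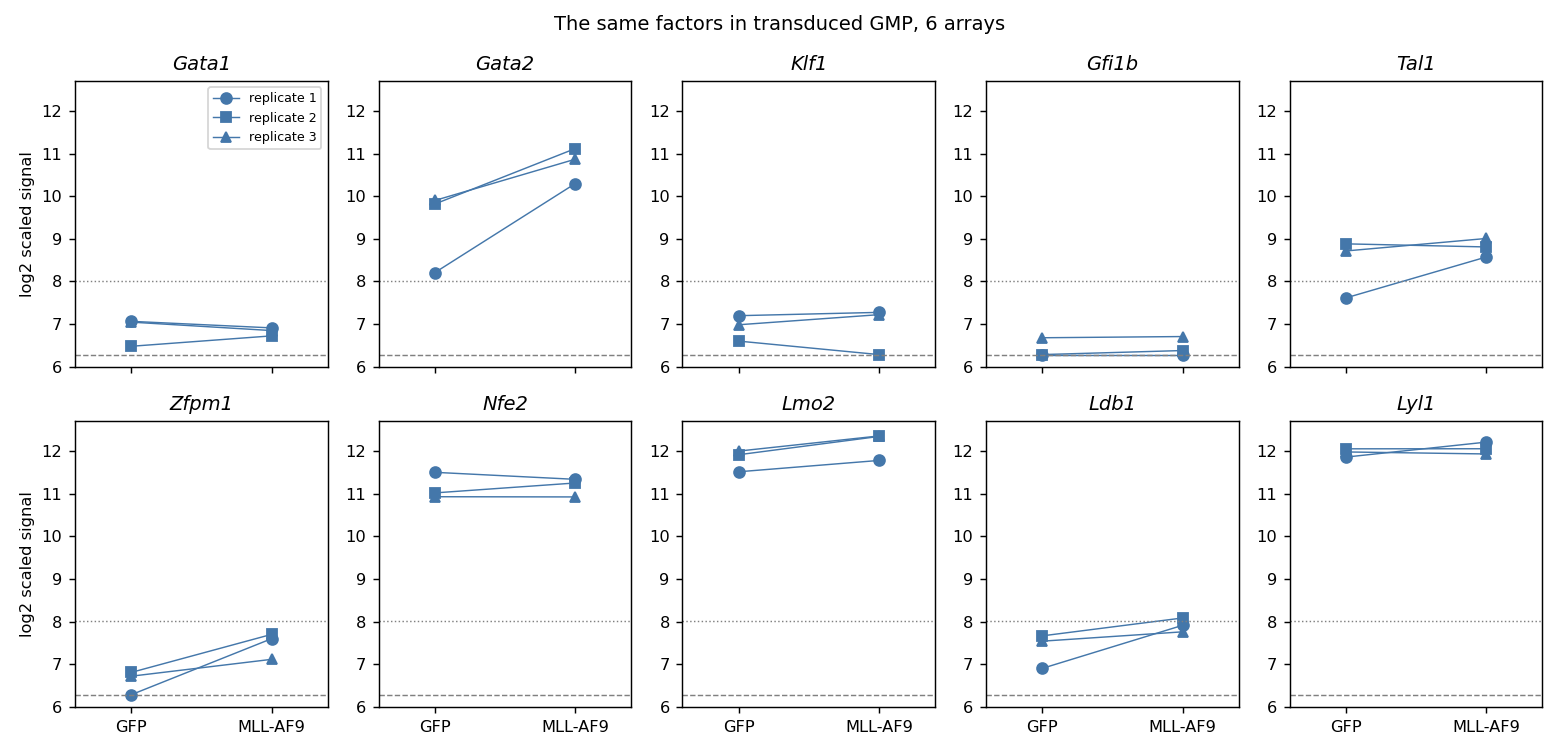
Log2 scaled signal of the 10 factors in transduced GMP, GFP on the left and MLL-AF9 on the right of each panel. Lines join arrays of the same replicate number, the dashed line is the floor at 6.29, and the dotted line is the median of the experiment at 8.01, which a gene had to exceed on 3 arrays to be tested. Gata2 rises along all 3 lines, and Gata1, Klf1, Gfi1b and Zfpm1 stay below the dotted line.

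The other tested factors differed less. Tal1 read 196, 472 and 420 with GFP and 381, 449 and 515 with MLL-AF9 (0.39 ± 0.33, adjusted p = 0.715), above the floor on all 6 arrays, and without replicate 1 of GFP, again the lowest, the difference was -0.0014. Lmo2 read 2923, 3856 and 4091 against 3514, 5190 and 5232 (0.35 ± 0.21, adjusted p = 0.600), and the difference was 0.20 without replicate 1 of GFP. The fits without that array kept replicate 1 of MLL-AF9, the lowest of its group for both genes, so no whole pair was left out. Within pairs of the same replicate number, Lmo2 was higher with MLL-AF9 each time, and Tal1 each time except in replicate 2. The SE and adjusted p of these factors come from the fit without the replicate block. Nfe2 differed by 0.02 ± 0.19 and Lyl1 by 0.10 ± 0.12. Of the factors below the filter, Zfpm1 read 77.9, 112 and 105 with GFP and 194, 208 and 139 with MLL-AF9, and Ldb1 read 120, 203 and 186 against 241, 272 and 217, without overlap in either case. In a fit without the filter their adjusted p was 0.593 and 0.672. None of the 18 erythroid, 7 megakaryocyte or 26 partner genes tested was called in the fit without the replicate block, which called only 2 of 7235 genes. The lists were not counted in the blocked fit. The ratio of Gata1 to Gata2 averaged -3.93 ± 0.51 with MLL-AF9 and -2.44 ± 1.15 with GFP, and 3 arrays against 3 cannot give an exact p below 0.1, the value obtained. Gata1 did not pass the filter here, and the change of the ratio (-1.49) mostly repeats that of Gata2 alone (1.45).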

How the data were processed

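The authors' deposited intensity of each probe set is linear and came from MAS5, per the submitters' processing notes; its version and scaling target are not given in the sources used here, nor is the origin of the values at or below 0 on each array. Within each experiment, arrays were scaled to a common mean trimmed by 2% at each end (factors 0.923 to 1.12), values below the 25th percentile were raised to it, and log2 was taken. This scaling removes any change in total RNA. Array medians as deposited were 90.8 to 116 (sorted) and 247 to 267 (transduced), and the number of arrays per group limits the precision. A probe set was kept if at least 3 arrays exceeded the experiment's median (13439 sorted, 11524 transduced), and the brightest kept probe set stood for its gene (8422 and 7235 genes). The 64 control probe sets, 691 with several genes and 1555 with none were not tested. The 22 sorted arrays shared 1 fit and the 6 transduced arrays another (limma 3.58.1, lmFit and eBayes, R 4.3.3, two-sided, Benjamini-Hochberg adjustment over all genes tested), checked on simulated data. Exact permutation tests used SciPy 1.17.1. Errors are SE for differences and SD for levels.

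Groups and replicate numbers came from the sample titles. With group means removed, same-numbered arrays correlated above 0.1 in 3 of 3 transduced pairs (r 0.379 to 0.596), so that number was taken as a pair there, but in only 18 of 37 sorted pairs. The factors and gene lists were chosen with earlier results of these data known, and no list is independent support for a pattern. Named genes are the 10 factors, in each list up to 3 called higher and 3 called lower with the highest mean, and the 4 genes closest to Gata1, Gata2, Klf1 and Tal1. Other lists were B and T cell genes (in L-GMP against GMP 1 of 6 tested was higher and 1 lower) and stem cell genes (2 of 12 higher, 3 lower). Alternatives tried were the floor, the filter, the scaling, single probe sets, the replicate block, a 3'/5' covariate, array weights, fits of only the groups compared, and leaving out arrays. Sequences are credited to RefSeq (GRCm38.p6).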

Additional observations from a re-analysis of the deposited data

Results flagged for a closer look

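A gap test for a single distant array was run on 44 sets of arrays of the same group and probe set or ratio. It pointed to 4, and chance alone points to about 1 in 20 sets. The test was run only on groups of at least 4 arrays, so MEP, GFP and MLL-AF9, with 3 arrays each, were not examined. GMP replicate 2 stood above the other GMP arrays in the second Gata2 probe set, at 8.50 on the log2 scale against 8.02 for the nearest. L-GMP replicate 4 stood below the others in Lmo2, at 11.04 against 11.42 for the nearest. L-GMP replicate 6 stood below the others in Lyl1, at 10.91 against 11.11, and its Tal1 to Lyl1 ratio, which rests on Lyl1 alone because Tal1 was at the floor, was correspondingly the highest of its group at -5.63 against -5.84.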

How the results depend on the processing

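Of the 100 differences of a factor between groups, 75 were called, and no called difference changed direction under any setting tried; those that did were small and uncalled. Array weights gave 1945 called genes for HSC against CMP and 2331 for CMP against GMP, in place of 1132 and 1413. For MLL-AF9 against GFP, 2 called genes became 1 with no filter, 1 with every kept probe set, 1 with the deposited values, 1 with the 3'/5' ratio as covariate, 83 with array weights and 126 with the replicate block, which called 1 factor (Gata2), and 0 without any 1 of the arrays. The factors called in L-GMP against GMP fell from 5 to 3 without replicate 1 of HSC, CMP and GMP, and ranged from 3 to 5 without single arrays. Genes called in HSC against CMP ranged from 688 (without CMP replicate 4) to 1211. Over both experiments the replicate block left 92 of 100 factor differences as they were; in the sorted one, where the number is no pair, it lost the calls of Gata2 in L-GMP against GMP (adjusted p = 0.0732) and Nfe2 in MEP against GMP (0.0575), and gained Ldb1 in L-GMP against GMP (-0.50, 0.0360), Gata2 in HSC against CMP (-0.74, 0.0307) and Nfe2 in MEP against HSC (-0.47, 0.0289). Signs turned, all uncalled, for Gata1 in L-GMP against GMP (0.031 with the replicate block and also without replicate 1 of HSC, CMP and GMP, -0.13 to 0.051 without single arrays), Nfe2 in L-GMP against MEP (0.064 with the block, 0.053 with the deposited values, -0.29 to 0.12 without single arrays), Nfe2 in MEP against CMP (0.0047 with array weights, -0.27 to 0.15 without single arrays), Gata1 in HSC against GMP (-0.025 with array weights, -0.022 to 0.18), Tal1 in HSC against CMP (0.078 with array weights, -0.14 to 0.015), Gata1 in L-GMP against HSC (0.0061 with array weights), Lmo2 in MEP against CMP (0.0031 without replicate 1 of HSC, CMP and GMP, -0.13 to 0.020 without single arrays), Lyl1 in CMP against GMP (-0.13 to 0.051), Nfe2 in MLL-AF9 against GFP (-0.015 with the 3'/5' covariate, -0.089 to 0.20) and Tal1 there (-0.0014 to 0.63), and the Tal1 to Lyl1 ratio there (-0.051 to 0.49). Quantile normalization and a floor at the 10th percentile left all 100 differences as they were, and a floor at the 50th percentile lost 8 calls of Zfpm1, Ldb1 and Klf1. The causes were not tested.

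Signals near the floor limit Klf1, Gfi1b, Zfpm1 and Tal1: a group wholly there gives only a bound, and differences between such groups could not be seen. Ldb1 lay close to it in GMP and L-GMP. Each factor except Gata2 rests on a single informative probe set.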
